A study of Mus musculus with 6 samples.

Results

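Integrins, laminins and collagen IV are the cell's receptors for the basement membrane and the main proteins of that sheet. The genes were taken by symbol alone: the integrin α chains (Itga), the integrin β chains (Itgb), the laminin chains (Lama, Lamb, Lamc), the collagen IV chains (Col4a), and Col17a1, Nid1, Nid2, Hspg2, Agrn and Dag1. This gave 48 of the 24190 genes in the count table, 27 on the receptor side and 21 on the matrix side. Of these, 31 passed the filter on low counts and were tested among 14692 genes, 18 receptors and 13 matrix genes, and 17 did not.

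The samples were cultures of MTO54, a mouse tumor organoid (MTO) line with the AKP genotype, which controls and treated cultures shared. The 3 control cultures received complete stem cell medium, and the 3 Folfiri cultures received the same medium with 5FU at 50 μg/μl (a unit copied from the labels) and SN38 at 100 nM. 5FU is a fluoropyrimidine that disturbs thymidylate synthesis, and SN38 is the active form of irinotecan, a topoisomerase I inhibitor. Single cells were seeded in BME, a basement membrane extract, and treatment started 2 days after seeding and lasted 2 days by the labels, whereas a figure legend of the study gives another duration. BME supplies laminin and collagen IV protein from outside, so the counts describe what the tumor cells transcribed and not the matrix that surrounded them. All samples come from 1 organoid line. A legend in the study calls the replicates of this comparison biological, and the sources used here do not say whether they were separate passages. The p-values measure the spread between these samples of a single line. In bulk RNA, fewer cells of one kind and less RNA per cell cannot be told apart.

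Integrins are pairs of 1 α and 1 β chain that span the membrane. The β1 chain pairs with many α chains, α6β4 anchors epithelial cells to laminin in hemidesmosomes, and αvβ6 binds RGD motifs such as that of latent TGF-β. Laminins are trimers of an α, a β and a γ chain, in the gut epithelium mostly laminin-511, laminin-521 and laminin-332, and collagen IV trimers form a network that nidogen and the heparan sulfate proteoglycans perlecan (Hspg2) and agrin (Agrn) connect to the laminins.

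Counts on genes ranged from 22103591 to 30098210 per library. Genes with a count numbered 18088 to 18613 in control libraries and 20616 to 20799 in Folfiri libraries. Levels are given in CPM, counts scaled by TMM-normalized library size, with TMM factors of 0.880 to 0.966 for controls and 1.10 to 1.11 for Folfiri. The median over all tested genes was 0.02 on the log2 scale with TMM and 0.30 with plain scaling by library totals, so small differences hang on that choice. Control replicate 1 and Folfiri replicate 3 differed most from the other libraries of their group. The chi-square per degree of freedom was 22.7 to 24.2 for the pairs with control replicate 1, against 3.85 for the other control pair. It was 12.8 and 13.2 for the pairs with Folfiri replicate 3, against 3.72 for the other Folfiri pair. Epithelial markers were abundant, with all 9 listed genes at 1 CPM or more and a summed level of 5980 to 6950 CPM in controls and 4820 to 4990 CPM after Folfiri. The 8 fibroblast markers with a row summed to at most 2.58 CPM and the 6 smooth muscle markers to at most 1.04 CPM. The 9 endothelial markers with a row summed to 80.0 to 133 CPM in controls and 70.4 to 80.5 CPM after Folfiri, of which Cdh5 alone made up 64.9 CPM or more in every culture. Vwf fell, with 7.35 CPM or more in every control and 4.53 CPM or less after Folfiri, Eng and Plvap rose but had at most 0.668 CPM in any culture, and the other 5 markers, Kdr among them, had at most 0.640 CPM. The 11 leukocyte markers with a row summed to 7.80 to 9.07 CPM in controls and 23.6 to 25.8 CPM after Folfiri. Cd14, S100a8, S100a9, Ptprc and Adgre1 rose. Lyz2, Tyrobp, Csf1r, Laptm5 and Coro1a did not pass the filter and had at most 0.268 CPM in any culture, among them Csf1r with no count in controls and 2, 3 and 3 counts after Folfiri.

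The question of the comparison was how chemotherapy changed expression in the organoids. Across the set, laminin, collagen IV and laminin receptor transcripts were mostly lower, and a few integrin chains were higher. Of the 31 tested members, 28 were called at an adjusted p under 0.05 (90.3%, against 79.1% of all tested genes, edgeR's quasi-likelihood test with Benjamini-Hochberg adjustment). Higher after Folfiri were 9 members (29.0%, against 40.3% of all genes) and lower were 19 (61.3%, against 38.8%). At least 2-fold higher were 2 members (6.45%, against 19.5%) and at least 2-fold lower were 10 (32.3%, against 16.8%). The Folfiri and control cultures did not overlap for 28 members (90.3%, against 81.4%). The median log2 change (log2 of Folfiri over control) was -0.58 over the tested members and 0.02 over all tested genes. Among receptors 7 were higher and 9 lower, with a median of -0.29. Among matrix genes 2 were higher and 10 lower, with a median of -0.98. Without control replicate 1 and Folfiri replicate 3, a choice made after seeing the data, 7 members were higher and 20 lower.

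**Figure D1:**
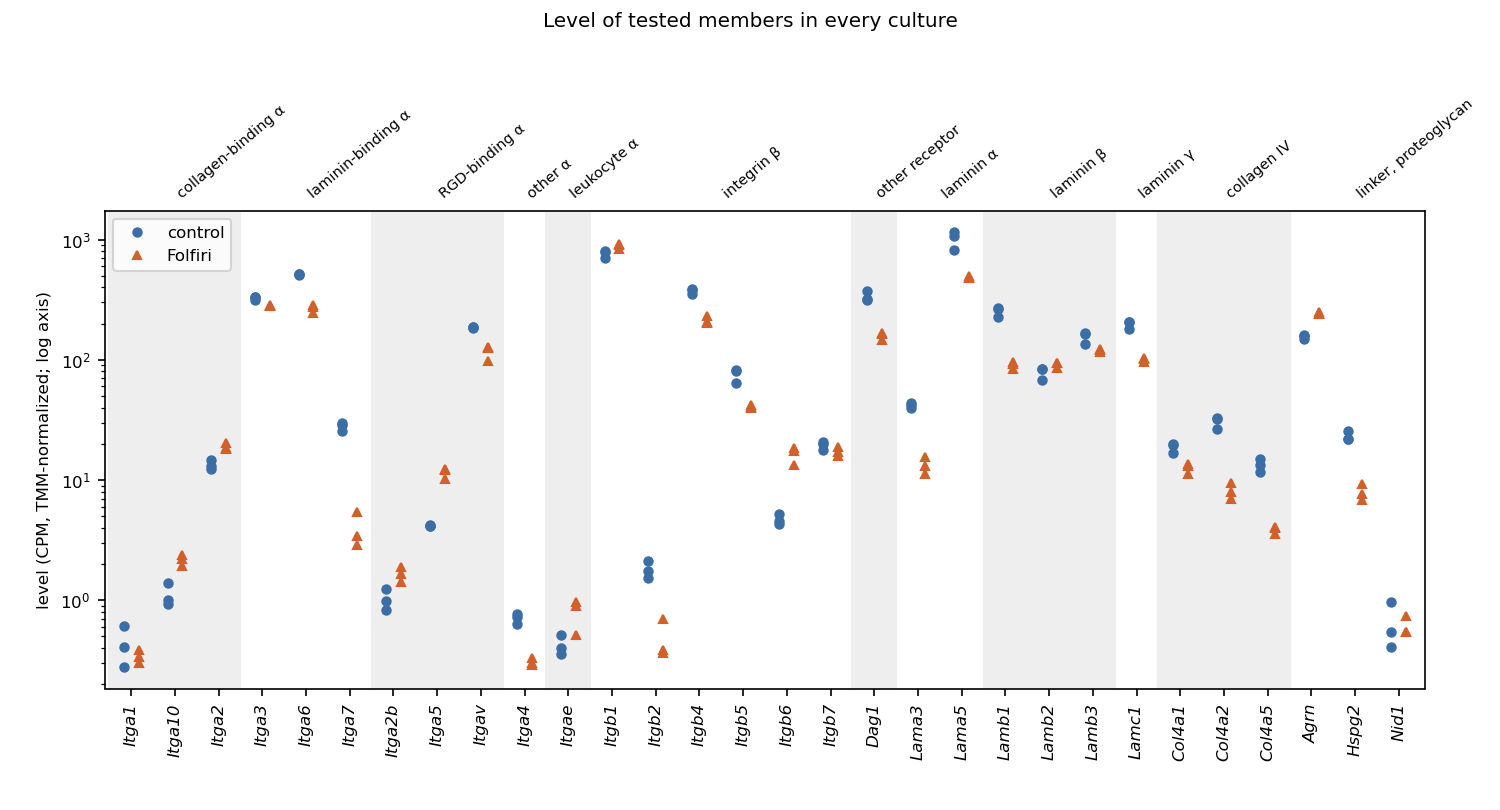
Level of 30 tested members in every culture, in TMM-normalized CPM on a log axis, grouped by class. Circles are the 3 control and triangles the 3 Folfiri cultures. The Itgb6 triangles lie between 13.4 and 18.4 CPM, above all circles, and the Itga7 triangles between 2.87 and 5.47 CPM, below all circles.

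**Figure D2:**
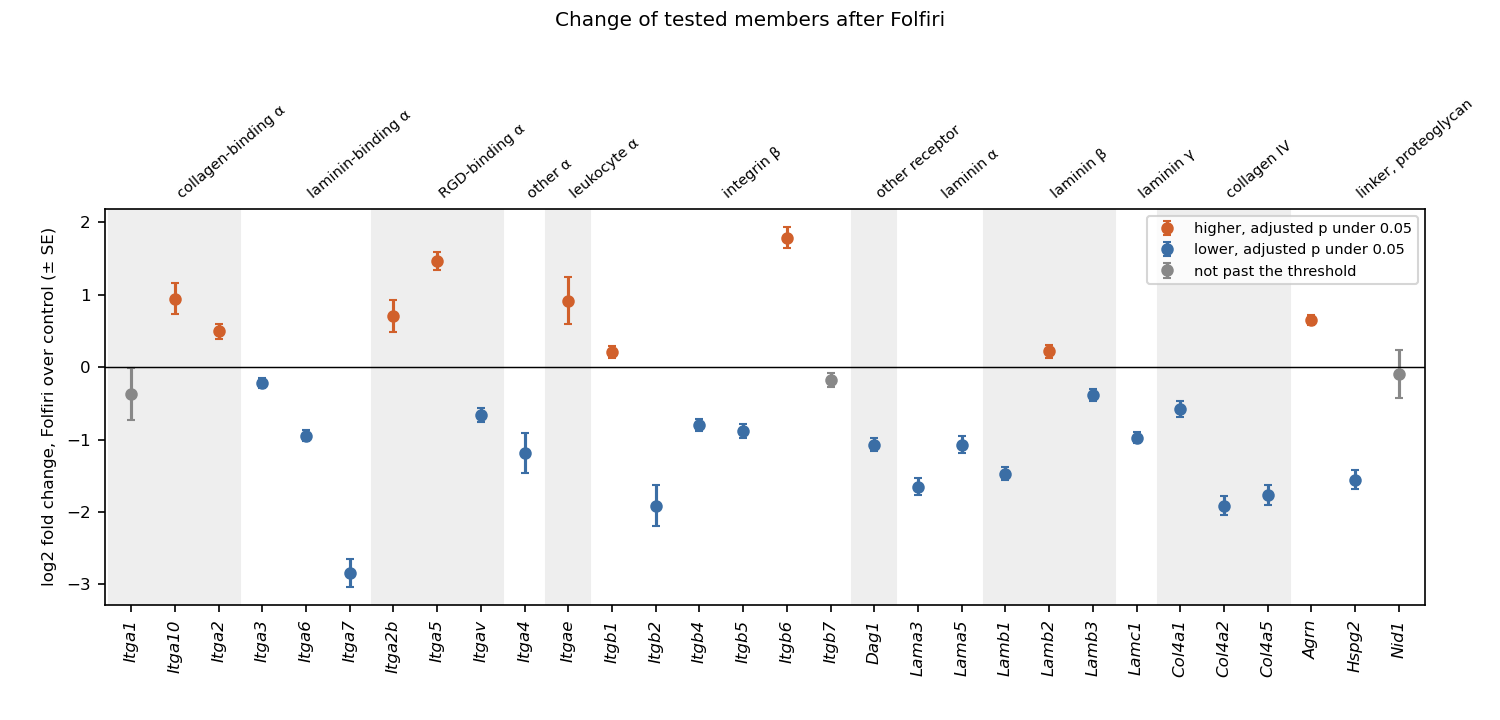
Log2 change of 30 tested members after Folfiri relative to control, with its standard error (SE) as a bar, from the edgeR fit over 3 and 3 cultures. Orange marks 9 members higher, blue 18 lower and grey 3 not past the threshold; the extremes are Itgb6 at 1.79 and Itga7 at -2.84.

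The start-site sequences of 4 members at the ends of this range are given here because they lie at the starts of members near both ends of this range. They are the 2 highest and the 2 lowest of the called members that were considered and met these conditions. Each had a mean of at least 5 CPM in a group and an entry in the RefSeq promoter table (GRCm38.p6). Each also had at least 200 bases of the 250 before the start left outside annotated exons. Not every member was considered, and Lama3, with a log2 change of -1.65 against -1.56 for Hspg2, was left out of the choice. Capitals mark GGGCGG, the core of the GC box that Sp1 binds, or its complement CCGCCC. Itgb6 and Itga5 are read from the minus strand, Col4a5 and Hspg2 from the plus strand. The stretches are Itgb6 at chr2:60722644-60722853, Itga5 at chr15:103366792-103367041, Col4a5 at chrX:141475169-141475384 and Hspg2 at chr4:137468553-137468768.
Itgb6: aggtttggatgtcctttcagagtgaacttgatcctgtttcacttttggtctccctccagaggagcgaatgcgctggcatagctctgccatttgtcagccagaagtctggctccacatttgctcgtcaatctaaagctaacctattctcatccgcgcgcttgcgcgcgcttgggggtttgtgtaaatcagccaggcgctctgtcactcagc
Itga5: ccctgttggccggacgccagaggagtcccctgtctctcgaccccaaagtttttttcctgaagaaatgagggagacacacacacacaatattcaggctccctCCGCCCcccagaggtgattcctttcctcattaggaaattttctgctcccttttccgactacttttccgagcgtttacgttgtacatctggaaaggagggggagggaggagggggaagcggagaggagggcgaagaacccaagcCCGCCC
Col4a5: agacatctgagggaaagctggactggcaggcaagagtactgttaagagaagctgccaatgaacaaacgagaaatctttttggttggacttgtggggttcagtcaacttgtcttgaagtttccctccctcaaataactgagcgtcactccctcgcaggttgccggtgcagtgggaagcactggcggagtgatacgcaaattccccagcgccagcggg
Hspg2: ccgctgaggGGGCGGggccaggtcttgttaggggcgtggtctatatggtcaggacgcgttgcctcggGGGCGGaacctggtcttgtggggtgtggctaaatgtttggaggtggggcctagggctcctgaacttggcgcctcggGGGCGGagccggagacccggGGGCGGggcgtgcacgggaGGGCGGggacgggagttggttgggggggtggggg

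The Hspg2 stretch held 5 such matches and the Itga5 stretch 2, while the printed Itgb6 and Col4a5 stretches held none. Over the whole 250 bases before the start, GGGCGG on either strand was present for 15 of the 33 members with an entry (45.5%), against 35.4% of 27025 genes in the table. It was present for 9 of the 12 members called lower and for 3 of the 8 called higher that had an entry. GGAATG, which TEAD factors bind, was present for 4 of 33 members (12.1%, against 14.4% of all), namely Itga10, Itgb1, Lamb3 and Nid1. TGANTCA, an AP-1 site, was present for 1 (3.03%, against 7.82%), Itgax. ACGTG, the core of the hypoxia response element, was present for 2 (6.06%, against 18.5%), Col4a4 and Itga9. All motifs were searched on both strands, no motif contains another, and a match is a description of the sequence and not a bound site.

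The RGD-binding α chains moved apart. Itga5 pairs with β1 to form the fibronectin receptor. It stood at 4.18, 4.20 and 4.11 CPM in controls 1 to 3 and at 10.3, 12.0 and 12.3 CPM in Folfiri cultures 1 to 3. Every treated culture was above every control. This was a log2 change of 1.47 (SE 0.12, edgeR adjusted p = 1.35e-06), a 2.77-fold rise. Itga5 (ENSMUSG00000000555) lies on chromosome 15 of GRCm38 from 103344286 to 103366763, and its promoter is the second one shown above. Itgav, the α chain of the αv integrins and partner of β1, β5 and β6 here, was at 186, 184 and 187 CPM in controls and 126, 128 and 98.3 CPM after Folfiri. All treated cultures were below all controls, and Folfiri replicate 3 was the lowest. Its log2 change was -0.66 (SE 0.10, edgeR adjusted p = 9.39e-05). A gene on the opposite strand, Gm13684, shares 634 exonic bases with Itgav. Itga2b, the platelet fibrinogen receptor chain, was near 1 CPM in controls (19 to 31 counts) and had 44 to 62 counts after Folfiri. Its log2 change was 0.70 (SE 0.22, edgeR adjusted p = 0.0138), and the call was lost without Folfiri replicate 3 (adjusted p = 0.0579, in a range of 0.00208 to 0.115 over the alternatives).

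Itgb6 had the largest rise of the 31 tested members. Its product pairs only with αv, and αvβ6 is an epithelial receptor that activates latent TGF-β. The level was 5.22, 4.60 and 4.32 CPM in controls and 17.3, 18.4 and 13.4 CPM after Folfiri. The groups did not overlap, and the lowest treated culture was more than 2-fold above the highest control. On the log2 scale the change was 1.79 (SE 0.15, edgeR adjusted p = 1.21e-06), a 3.45-fold rise. Itgb6 (ENSMUSG00000026971) spans 124 kb of chromosome 2, from 60598292 to 60722643. Itgb5, another β chain whose only partner is αv, went the other way, from 64.5, 80.1 and 81.5 CPM to 39.9, 42.1 and 40.6 CPM. Its log2 change was -0.88 (SE 0.10, edgeR adjusted p = 9.46e-06). Per exonic length, the log2 ratio of Itgb6 to Itgb5 was -4.99 ± 0.323 in controls and -2.33 ± 0.233 in Folfiri cultures (SD, n = 3 each), so Itgb5 remained the more abundant transcript in every culture. In log2, the ratio of Itgav to Itgb6 was 4.70 ± 0.140 and 2.25 ± 0.0445 (SD, n = 3 each).

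All 3 tested laminin-binding α chains fell, by different amounts, though Itga3 turned with scaling by library totals. Itga7, the α chain of the laminin receptor best known from muscle, fell most of the 31 members. It was at 25.8, 29.9 and 28.5 CPM in controls and at 5.47, 2.87 and 3.43 CPM after Folfiri, so treated cultures kept 13.9% of the control mean. The log2 change was -2.84 (SE 0.19, edgeR adjusted p = 2.70e-07). Itga7 (ENSMUSG00000025348) lies on chromosome 10 from 128933818 to 128958282 and shares 9 exonic bases with Mettl7b on the opposite strand. Itga6, the α chain of α6β1 and α6β4, was at 511, 515 and 519 CPM in controls and 284, 275 and 244 CPM after Folfiri. The control values were close to each other, and every treated value was far below them. This was a log2 change of -0.95 (SE 0.08, edgeR adjusted p = 1.35e-06). Itga3, the α chain of α3β1, the receptor for laminin-332 and laminin-511, was at 314, 335 and 331 CPM and then at 286, 279 and 281 CPM. Its log2 change was -0.21 (SE 0.07, edgeR adjusted p = 0.0136). Scaled by library totals it was 0.06, and the call was lost without control replicate 2 (adjusted p = 0.0539) or Folfiri replicate 2 (0.0696), in a range of 5.69e-06 to 0.31 over the alternatives.

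Itga3 and Itga6 share ligands and the β1 partner, so their proportion was compared free of library scaling. The log2 ratio of Itga3 to Itga6, per exonic length, was 0.00 ± 0.0413 in controls and 0.74 ± 0.111 in Folfiri cultures (SD, n = 3 each). The groups were separate (p = 0.1, exact permutation of the cultures, two-sided, which cannot give less with 3 against 3). Itga3 made up 41.4% and Itga6 41.3% of all integrin α transcript per length in controls, and 51.2% and 30.7% after Folfiri. Which of them led depended on the length used, since with the longest transcript the shares were 30.1% and 53.4% in controls and 40.3% and 43.0% after Folfiri.

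Itgb4 encodes the long-tailed partner of α6 in hemidesmosomes. It was at 350, 386 and 378 CPM in controls and 230, 206 and 203 CPM after Folfiri, with no overlap. On the log2 scale the change was -0.80 (SE 0.08, edgeR adjusted p = 4.45e-06). B230344G16Rik on the opposite strand shares 537 exonic bases with it. Per length, the log2 ratio of Itga6 to Itgb4 was 0.11 ± 0.0666 in controls and -0.04 ± 0.0825 in Folfiri cultures (SD, n = 3 each). These groups overlapped (difference -0.15, exact permutation p = 0.2), so a difference between the falls of the α6β4 chains was not resolved with 3 cultures a group.

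Itgb1, the common β chain, was the most abundant integrin transcript per length in both groups. It was at 702, 792 and 807 CPM in controls and 900, 918 and 841 CPM after Folfiri. The log2 change was 0.21 (SE 0.09, edgeR adjusted p = 0.0466). The groups were separate, but the call was lost without control replicates 2 or 3 (adjusted p = 0.0819 and 0.0642) and without Folfiri replicates 1 or 2 (0.127 and 0.151). It was also lost with DESeq2 size factors (0.0603), with no filter (0.0759) and with the replicate number as a block (0.0757), in a range of adjusted p of 7.02e-05 to 0.151 over the alternatives. Itgb4 and Itga6 were set against Itgb1 within a library, and both fell relative to it. In log2, the ratio of Itgb4 to Itgb1 moved from -1.82 ± 0.0457 to -2.84 ± 0.0953, and that of Itga6 to Itgb1 from -1.72 ± 0.0995 to -2.88 ± 0.0610 (SD, n = 3 each). Itgb1 held 69.4%, 69.2% and 69.9% of integrin β transcript per length in controls and 80.8%, 81.8% and 80.7% after Folfiri. Itgb4 held 19.6% and then 11.4%, Itgb5 7.82% and 4.30%, and Itgb6 0.247% and 0.858% (means of 3 cultures). The sum of the β chains was 270 ± 19.6 CPM per kb in controls and 268 ± 10.8 CPM per kb after Folfiri, whereas that of the α chains was 138 ± 2.34 and 96.4 ± 3.95 CPM per kb (SD, n = 3 each).

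**Figure D3:**
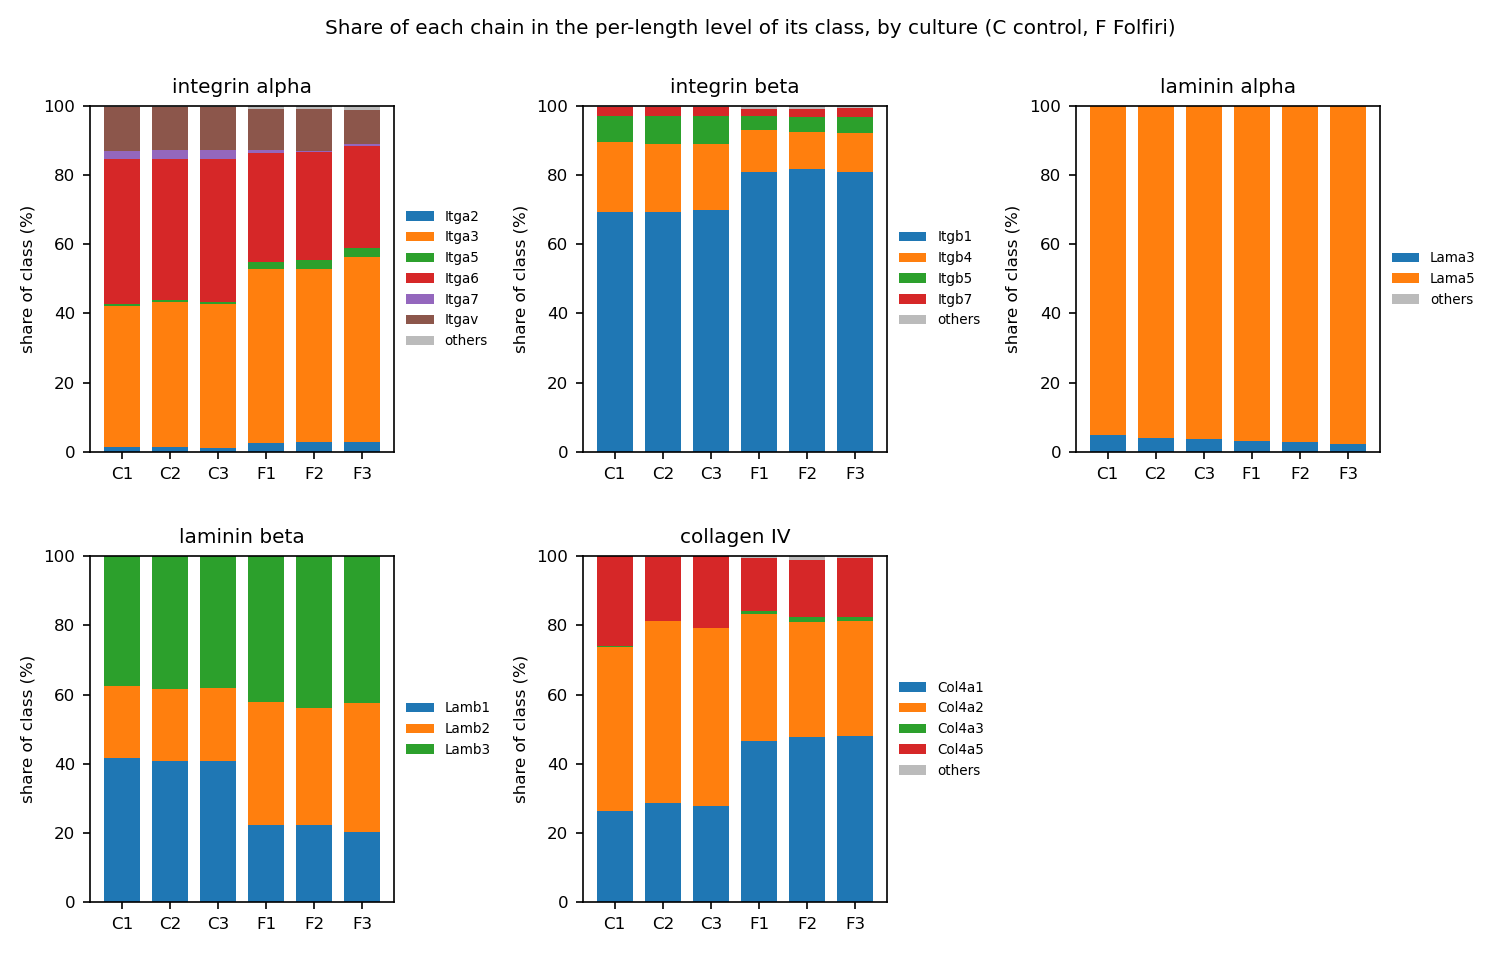
Share of each chain in the summed CPM per kb of exonic length of its class, in percent, for control cultures C1 to C3 and Folfiri cultures F1 to F3; chains that hold under 1% in both groups are drawn as others. Itgb1 grows from 69.5% to 81.1% of the β chains, Lamb2 from 20.8% to 35.5% of the laminin β chains and Col4a1 from 27.6% to 47.5% of collagen IV.

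Of the collagen-binding chains, Itga2, the α chain of the main epithelial collagen receptor α2β1, was at 14.7, 13.2 and 12.3 CPM in controls and 18.1, 20.2 and 18.5 CPM after Folfiri. The groups did not overlap. This was a log2 change of 0.50 (SE 0.10, edgeR adjusted p = 0.000994). Its log2 ratio to Itga3 was -4.93 ± 0.170 in controls and -4.22 ± 0.101 in Folfiri cultures (SD, n = 3 each). Itga10, a collagen II receptor chain of cartilage, had 39, 25 and 18 counts in controls and 66, 60 and 78 after Folfiri, which is a log2 change of 0.94 (SE 0.21, edgeR adjusted p = 0.00173). It shares 1739 exonic bases with Gm42957 on the same strand, so the reads may belong to either. Itga1, with 7 to 17 counts in any culture, was not called (log2 change -0.37, SE 0.36).

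The chains known from leukocytes, of which only Itgb7 was above 3 CPM, did not share a direction. Itgae, the αE chain that binds E-cadherin, had 10, 10 and 10 counts in controls and 29, 28 and 17 after Folfiri. Its log2 change was 0.92 (SE 0.33, edgeR adjusted p = 0.0248), and the call was lost without control replicates 1 or 2 (adjusted p = 0.0696 and 0.0675), without Folfiri replicates 1 or 2 (0.0917 and 0.0783) and with DESeq2 (0.0835), in a range of 0.00605 to 0.0917. Itgb7, the partner of αE and of α4, was at 17.8, 20.5 and 20.0 CPM in controls and 15.7, 17.1 and 18.7 CPM after Folfiri. The groups overlapped (log2 change -0.18, SE 0.10, adjusted p = 0.133, edgeR). Without control replicate 1 the difference passed the test at -0.24 (adjusted p = 0.0244, range 0.00128 to 0.391), and scaled by library totals it was 0.10. Itgb2, the β chain of the leukocyte integrins, had 49, 53 and 30 counts in controls and 21, 12 and 12 after Folfiri. It fell with a log2 change of -1.91 (SE 0.28, edgeR adjusted p = 8.21e-05). Itga4 had 20, 16 and 15 counts and then 9, 9 and 11, a log2 change of -1.18 (SE 0.27, edgeR adjusted p = 0.00222), and overlaps 1124 exonic bases of Cerkl on the opposite strand. The summed leukocyte markers given above were higher after Folfiri, and their part in the values of these chains was not tested.

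Dag1 encodes dystroglycan, a laminin receptor outside the integrin family whose sugar chains carry the binding site. It was at 370, 318 and 316 CPM in controls and 166, 165 and 146 CPM after Folfiri. Every treated culture was below every control. On the log2 scale the change was -1.07 (SE 0.09, edgeR adjusted p = 1.15e-06). Of the listed enzymes that glycosylate dystroglycan, 10 were tested. Higher were 8 (80.0%, against 40.3% of all tested genes) and lower was 1 (10.0%, against 38.8%), and the median log2 change was 0.92 against 0.02 over all tested genes. Pomgnt2 rose by 1.79, and Pomk and Rxylt1 by 1.29 each on the log2 scale, all in the steps that build or phosphorylate the core sugar or extend it. Pomgnt2 was low, with 27, 12 and 7 counts in controls and 76, 58 and 71 after Folfiri.

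On the matrix side, both tested laminin α chains fell, and the class sum per length was 0.47 of its control value. Lama5, the α chain of laminin-511 and laminin-521, was at 818, 1080 and 1148 CPM in controls and 497, 476 and 477 CPM after Folfiri. Control replicate 1 was the lowest control and still above the highest treated culture. The log2 change was -1.07 (SE 0.12, edgeR adjusted p = 1.12e-05). Lama5 (ENSMUSG00000015647) lies on chromosome 2 from 180176373 to 180225859. Lama3, the α chain of laminin-332, was at 39.9, 41.9 and 43.4 CPM in controls and 15.7, 13.0 and 11.2 CPM after Folfiri, which is a log2 change of -1.65 (SE 0.12, edgeR adjusted p = 3.85e-07). Treated cultures kept 31.9% of its control mean. Gm29200 on the opposite strand shares 197 exonic bases with Lama3. Lama5 held 95.8% of laminin α transcript per length in controls and 97.1% after Folfiri, and the sum of the class was 93.0 ± 15.5 and 43.7 ± 1.24 CPM per kb (SD, n = 3 each).

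Among the laminin β chains, Lamb1 fell most and Lamb2 did not fall. Lamb1, the β chain of laminin-511, was at 225, 268 and 264 CPM in controls and 96.2, 92.8 and 84.2 CPM after Folfiri, which is a log2 change of -1.47 (SE 0.09, edgeR adjusted p = 1.36e-07). Lamb2, the β chain of laminin-521, was at 68.4, 83.9 and 83.8 CPM and then at 94.1, 86.0 and 94.2 CPM. Its log2 change was 0.22 (SE 0.09, edgeR adjusted p = 0.0459), and the call was lost without control replicate 1 (adjusted p = 0.0823) and without Folfiri replicates 1 or 3 (0.124 and 0.111). It was also lost with DESeq2 size factors (0.0566), with no filter (0.0771) and with the DESeq2 test (0.065), in a range of adjusted p of 0.000213 to 0.124 over the alternatives. Their ratio does not depend on library scaling. The log2 ratio of Lamb2 to Lamb1 per length was -1.01, -0.97 and -0.95 in controls and 0.67, 0.60 and 0.87 after Folfiri, so by exonic length Lamb1 was the more abundant in every control and Lamb2 in every treated culture. With the longest transcript as length, Lamb1 still led in every control, but the treated cultures were near even, at 0.00717, -0.0702 and 0.201. The difference was 1.69 and the ratio changed 3.23-fold (exact two-sided permutation p = 0.1, the smallest possible). Lamb1 fell from 41.1% to 21.7% of laminin β transcript and Lamb2 went from 20.8% to 35.5%.

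Lamb3, the β chain of laminin-332, was at 135, 168 and 165 CPM in controls and 121, 122 and 117 CPM after Folfiri. The groups did not overlap, and the log2 change was -0.38 (SE 0.09, edgeR adjusted p = 0.0021). Scaled by library totals it was -0.10 and did not pass the threshold (adjusted p = 0.196, the highest over the alternatives, of which the lowest was 1.55e-10). Lama3, the α chain of the same trimer, fell further, as the log2 ratio of Lama3 to Lamb3 was -2.60 ± 0.126 and then -3.88 ± 0.222 (SD, n = 3 each), with separate groups. Lamc1, the γ chain of laminin-511 and laminin-521, was at 181, 206 and 206 CPM in controls and 104, 102 and 95.1 CPM after Folfiri, which is a log2 change of -0.98 (SE 0.08, edgeR adjusted p = 8.93e-07).

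Collagen IV had the lowest sum of the laminin and collagen classes, at 9.13 ± 0.528 CPM per kb in controls and 3.56 ± 0.367 CPM per kb after Folfiri (SD, n = 3 each), 0.39 of the control sum. Col4a1 and Col4a2 encode the chains of the usual trimer, 2 of the first with 1 of the second, and their genes start head to head on chromosome 8. Col4a1 (ENSMUSG00000031502) runs on the minus strand from 11198423 to 11312826 and Col4a2 (ENSMUSG00000031503) on the plus strand from 11312805 to 11449287, so that their annotated first exons share 22 bases at chr8:11312805-11312826 (GRCm38.p6, RefSeq, plus strand). That stretch is shown because both genes are read from it in opposite directions, with GGGCGG in capitals as above.
Col4a1 and Col4a2 shared start: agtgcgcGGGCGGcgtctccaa

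Col4a1 was at 16.8, 20.0 and 19.6 CPM in controls and 13.5, 13.0 and 11.3 CPM after Folfiri, which is a log2 change of -0.58 (SE 0.11, edgeR adjusted p = 0.000603). Col4a2 was at 26.7, 32.6 and 32.3 CPM in controls and 9.42, 8.00 and 6.92 CPM after Folfiri, which is a log2 change of -1.91 (SE 0.13, edgeR adjusted p = 3.07e-07). Both fell with separate groups, and the pair did not fall together. In log2, the ratio of Col4a2 to Col4a1 per length was 0.84, 0.88 and 0.89 in controls and -0.34, -0.52 and -0.54 after Folfiri, so the more abundant chain was Col4a2 in every control and Col4a1 in every treated culture, also with the longest transcript as length. The difference was -1.34 (exact two-sided permutation p = 0.1, the smallest possible). The library kit does not mark strand and the counting setting is not given in the sources used here, so reads in the 22 shared bases, and in the 65 bases that Col4a2 shares with Col4a1 and Gm15419 together, cannot be told apart. Col4a5, on chromosome X, encodes a chain of the α5-containing networks. It was at 14.8, 11.6 and 13.2 CPM and then at 4.02, 4.07 and 3.58 CPM, a log2 change of -1.77 (SE 0.13, edgeR adjusted p = 6.22e-07).

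The proteoglycans that join the network went in opposite directions. Hspg2, perlecan, was at 22.1, 22.1 and 25.7 CPM in controls and 9.36, 7.58 and 6.83 CPM after Folfiri, which is a log2 change of -1.56 (SE 0.13, edgeR adjusted p = 1.25e-06). Agrn, agrin, was at 149, 157 and 159 CPM and then at 252, 238 and 240 CPM, a log2 change of 0.65 (SE 0.07, edgeR adjusted p = 6.55e-06). Agrn was 1 of only 2 matrix members that were higher, and the other, Lamb2, lost its call in 7 of 14 alternatives. The log2 ratio of Agrn to Hspg2 was 3.36 ± 0.101 in controls and 5.57 ± 0.193 in Folfiri cultures (SD, n = 3 each), a 4.63-fold change of the ratio with separate groups. Nid1, which links laminin to collagen IV, had 8 to 24 counts in any culture and was not called (log2 change -0.09, SE 0.33).

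Of 13 subunit pairs compared within libraries, 12 had separate groups, 6 with a higher ratio after Folfiri and 6 with a lower one. Each of these 12 had p = 0.1 in the exact permutation test and 0.108 after Benjamini-Hochberg adjustment over the 13 pairs, so none could pass 0.05 at this number of cultures. The pairs share members and are not independent.

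**Figure D4:**
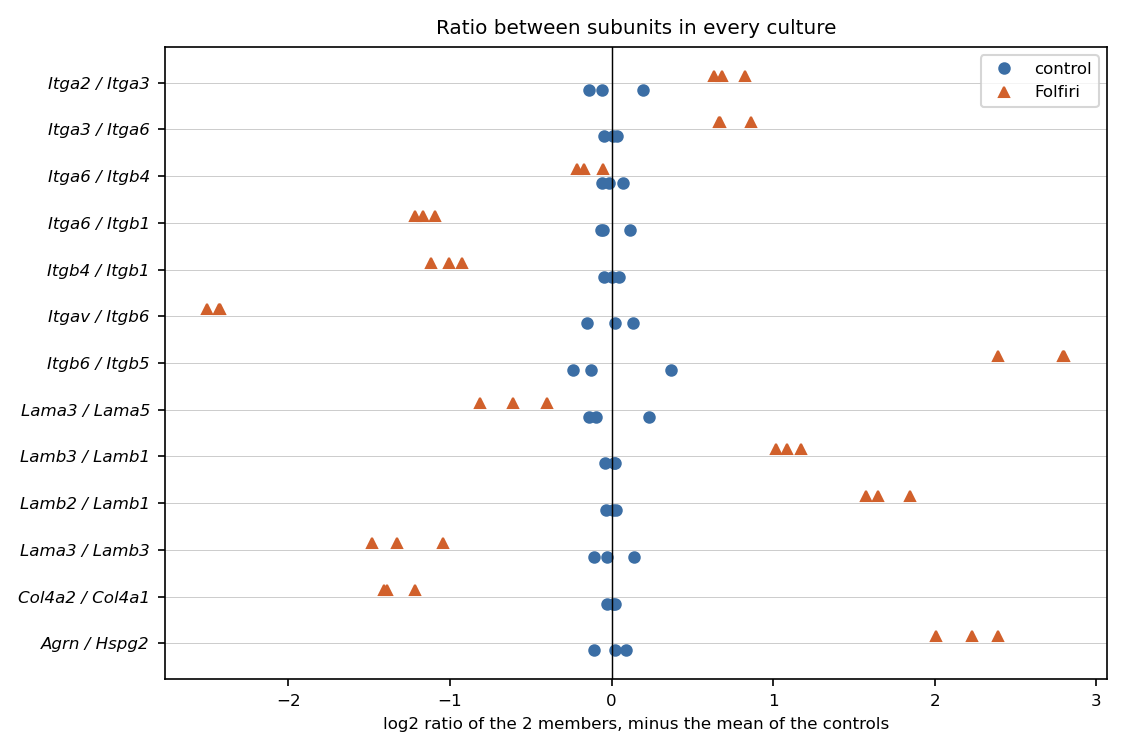
Log2 ratio of 2 members per exonic length in each culture, minus the mean of the 3 controls, for the 13 pairs; circles are control and triangles Folfiri cultures. The triangles overlap the circles only for Itga6 to Itgb4, and reach furthest for Itgb6 to Itgb5, at a difference of 2.66.

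The 17 members that did not pass the filter had at most 14 counts in any library. They were Col17a1, Col4a3, Col4a4, Col4a6, Itga11, Itga8, Itga9, Itgal, Itgam, Itgax, Itgb3, Itgb8, Lama1, Lama2, Lama4, Lamc3 and Nid2. Col17a1, the transmembrane collagen of hemidesmosomes, had 2, 1 and 2 counts in controls and 7, 5 and 4 after Folfiri. Lama2, the α chain of muscle laminin, had 0, 1 and 1 counts and then 8, 11 and 8. Itga11, a collagen receptor chain of fibroblasts, had 1, 1 and 2 and then 9, 10 and 13. Col4a3 had 7, 3 and 1 and then 8, 14 and 13, and overlaps C430014B12Rik on the opposite strand. These levels are close to 0 in both groups, and the fibroblast markers summed to 1.80 to 2.02 CPM in controls and 2.25 to 2.58 CPM after Folfiri. Of the 3 fibroblast markers tested, Dcn rose from 2, 0 and 0 counts to 19, 26 and 20 (adjusted p = 5.89e-05, edgeR) and Pdgfra rose with a log2 change of 1.54, whereas Col1a1 fell with -1.47. The other 5 with a row were not tested, among them Col6a3 with 26, 13 and 7 counts in controls and 4, 6 and 6 after Folfiri. Their part in the values of these members was not tested. Itgam, Lama4 and Col4a6 had no count in the 3 controls and 5, 9 and 6 counts in total over the treated cultures. A count of 0 allows up to 3 counts per library, which covers counting error only. Across the whole table, more genes had a count in every Folfiri library than in any control. The median log2 change over all 24190 genes with no filter was 0.275. With no filter, 12 of the 48 members were called higher (27.2% of all 24190 genes were) and 19 lower (25.5% of all). Of the 12, 5 were near-zero members named here, Lama2, Itga11, Lama4, Col4a3 and Itgal, while Itgb1 and Lamb2 lost their calls.

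Genomic length differed among the members along with the change. All 11 tested members that span more than 100 kb had a median log2 change of -0.95, and 9 of them were lower and 1, Itgb6, higher. All 1643 tested genes of that length had a median of -0.40, with 55.0% of them lower and 23.5% higher. The 14 members of 30 to 100 kb had a median of -0.52, against 0.05 for all 3812 such genes, and the 6 of 10 to 30 kb had 0.46, against 0.27 for all 4416. No tested member was shorter than 10 kb, where all 4816 genes had a median of -0.13. Both the members and all genes of 10 kb or more thus had lower medians with greater length. Spearman's rho between span and log2 change was -0.39 across the 31 members and -0.205 across the 9871 genes of 10 kb or more, but -0.00585 across all 14687 tested genes with a span, as a description, since genes share libraries and are not replicates. The part of length in the members' values was not tested.

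Inside the cell, 25 integrin adaptors and kinases were tested. Of these, 9 were higher (36.0%, against 40.3% of all tested genes) and 9 lower (36.0%, against 38.8%), both shares near the background, with a median log2 change of -0.05. Scaled by library totals, 13 were higher and 6 lower. Talin (Tln1), which switches integrins on, fell from 191 ± 9.17 to 101 ± 5.28 CPM, a log2 change of -0.92. Focal adhesion kinase (Ptk2) fell from 142 ± 1.46 to 68.5 ± 4.41 CPM (-1.05), Tns1 had -1.10 and Tns2 -0.88. Tns1 was low, with 40, 28 and 19 counts in controls and 21, 11 and 20 after Folfiri. Src, the kinase that acts with focal adhesion kinase, rose from 67.3 ± 1.65 to 115 ± 5.28 CPM (0.78), and Tns3 (0.90), Tns4 (0.69) and Itgb1bp1 (0.64), a regulator of β1, rose as well (SD, n = 3 each, adjusted p at most 0.0046, edgeR).

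In the hemidesmosome list of plakins, tetraspanins and keratins, 3 of 9 were higher (33.3%, against 40.3% of all tested genes) and 2 lower (22.2%, against 38.8%), or 5 and 1 when libraries were scaled by totals. Cd151, the tetraspanin that binds α3 and α6 integrins, fell from 87.9 ± 4.95 to 51.9 ± 3.09 CPM (log2 change -0.76), and Krt8 had -0.27, a size that depends on the scaling. Krt5, a keratin of stratified epithelia, went from 0.679 ± 0.113 to 2.81 ± 0.239 CPM (2.02), and Cd81 had 0.24 (SD, n = 3 each, adjusted p at most 0.0163, edgeR). Among other matrix receptors, 1 of 11 tested was higher (9.09%, against 40.3%) and 7 lower (63.6%, against 38.8%). The syndecans Sdc3 (-2.60) and Sdc1 (-0.93), the glypican Gpc1 (-0.67) and galectin-3 (Lgals3, -1.20) fell, and Mcam, a laminin-411 receptor near 1 CPM, had 1.30.

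Of 13 tested collagen maturation genes, 7 were lower (53.8%, against 38.8% of all tested genes) and 3 higher (23.1%, against 40.3%). Plod2, a lysyl hydroxylase, went from 85.9, 88.1 and 96.8 CPM in controls to 4.39, 3.71 and 3.82 CPM after Folfiri, which is a log2 change of -4.50 (SE 0.10, edgeR adjusted p = 1.24e-09). The prolyl 4-hydroxylase subunits P4ha1 and P4ha2, which stabilize the collagen triple helix, had -2.73 and -1.94, and Creb3l1, a transcription factor for collagen secretion, -4.41. The crosslinking enzymes Loxl4 (3.01), Loxl2 (0.97) and Tgm2 (0.56) rose. Loxl2 was low, with 12, 18 and 15 counts in controls and 43, 42 and 30 after Folfiri. Among other matrix ligands of integrins, 3 of 13 tested were higher (23.1%, against 40.3%) and 6 lower (46.2%, against 38.8%). Thrombospondin 1 (Thbs1), which binds several integrins, rose from 4.32 ± 0.322 to 20.3 ± 2.37 CPM (2.23), with osteopontin (Spp1, 1.18) and nephronectin (Npnt, 0.52). Smoc2 (-2.46), Fbln2 (-1.77), the basement membrane collagen Col18a1 (-1.52) and Ntn4 (-0.64) fell. Fbln2 was low, with 58, 40 and 49 counts in controls and 13, 17 and 26 after Folfiri. The medians of these lists, in the order named from the hemidesmosome list on, were 0.16, -0.39, -0.37 and -0.28, against 0.02 over all tested genes.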

How the data were processed

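RNA of 3 control and 3 Folfiri cultures of MTO54 organoids was sequenced from poly(A) libraries made with a kit that does not mark strand. The authors aligned reads with STAR 2.5.2 to the mouse genome (GRCm38, GENCODE vM25), sorted with Sambamba, and deposited raw gene counts made with Rsubread. Strand setting and treatment of reads with several positions are not given in the sources used here.

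From the deposited counts, genes were filtered with filterByExpr, scaled by TMM and tested with the quasi-likelihood test of edgeR 4.0.16 in R 4.3.3, with Benjamini-Hochberg adjustment over all tested genes and a threshold of 0.05. No covariate was used. SE is the log2 fold change divided by the square root of the F statistic. Depth was 22103591 to 30098210 counts per library, and counting intervals would cover counting error only. Positions, exonic lengths and overlaps came from GENCODE vM21, also GRCm38, which held 24168 of 24190 gene IDs. Levels compared between genes are CPM per kb of exonic length. Ratios used counts with 0.5 added and exact two-sided permutation tests over cultures.

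The members, the pathway and marker lists and the tests were chosen with earlier results of these data known. Every member may be named. From each pathway list up to 4 genes per direction are named, those with the largest change among called genes whose groups do not overlap. Lum, Postn, Cldn5 and Cd3e were listed but not found by symbol. Start-site sequences came from the RefSeq table on GRCm38.p6, which held 33 of 48 members. Alternatives were DESeq2 size factors and the Wald test of DESeq2 1.42.0, upper quartile scaling, total counts only, 2 other filters, the replicate number as a block, leaving out each replicate, no added count and the longest transcript as length. Some genes and the values that need them are not reported here. The procedure was tested on simulated data.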

Additional observations from a re-analysis of the deposited data

How the results depend on the processing

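Of the 28 called members, 21 kept their call in the alternatives in which they were tested, 5 higher and 16 lower. The exceptions included Itgb1, Lamb2, Itgae, Itga2b, Itga3 and Lamb3. Members called higher numbered 7 to 12 and members called lower 16 to 20 over the alternatives, and leaving out 1 replicate gave 7 to 9 and 18 to 20. Genes called across the table numbered 10383 to 12742, and 11021 to 12312 with 1 replicate left out. With scaling by total counts only, 63.3% of called genes were higher, against 51.0% with TMM. The log2 fold changes of Itga3, Itgb7 and Nid1 then turned to 0.0634, 0.101 and 0.182, the adaptor and kinase list had 13 genes higher and 6 lower, the hemidesmosome list 5 and 1, other matrix receptors had 2 higher and collagen maturation had 5 higher. Leaving out 1 replicate gave between 1 and 4 hemidesmosome genes lower, 4 of them without control replicate 1. It gave -0.627 to 0.0154 for Itga1 and -0.293 to 0.315 for Nid1, neither called in any alternative. Without both control replicate 1 and Folfiri replicate 3, an alternative chosen after seeing the data, Itga1 was at 0.0951. Replicate numbers did not pair the samples, as the deviations of same-numbered cultures correlated at 0.0267, -0.117 and 0.0393. With the replicate number as a block, 11499 genes were called, among them 8 members higher and 19 lower, and Itgb1 lost its call. At most 53 counts per library limit Itgae, Itga1, Itga4, Itgb2 and Nid1.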
